A study of Danio rerio with 18 samples.

Results

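The results below concern 18 of 22548 zebrafish genes with a symbol, in RNA-seq of pooled, transgene-positive embryos at 24 hours post fertilization. The libraries number 18 and fall into 6 groups of 3. For each of the 18 genes the mean level in FACS sorted libraries (RNA of GFP-positive endothelial cells from AngioTag embryos) was at least 4 times that in FACS total libraries (total RNA of AngioTag embryos), yet the mean level in AngioTag IP libraries was at most 0.67 times that in AngioTag input libraries. Levels are in CPM, the count of a gene divided by the total of its library and brought to a common scale. For ratios, 0.5 CPM was added to each group mean, and a mean of at least 5 CPM in FACS sorted was required. The genes were thus chosen by the measured values of these 4 groups, and those values are given as a description without a test. The remaining groups, RiboTag IP and RiboTag input, were not used in the choice.

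The AngioTag and RiboTag lines, given in the labels as Angiotag transgenic and Ribotag transgenic, carry ribosomes with an HA tag. An IP library holds RNA that came down with an HA antibody, and the input library holds RNA of the same line before that step. Per knowledge of the study rather than the labels, the AngioTag transgene is driven by the endothelial kdrl promoter and its tagged protein is rpl10a, while RiboTag tags ribosomes throughout the embryo. Sorting and ribosome pull-down address the same cell type from different sides: sorting collects whole cells, with nuclear and cytoplasmic RNA, after the embryo is dissociated, and pull-down collects messages on ribosomes directly from a lysate. A message can be present in a cell without being on ribosomes, and the level of an RNA in a pull-down is always relative to the lysate it came from.

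Most endothelial markers were high in both preparations, with RNA of other cells beside them. The VEGF receptor gene kdrl averaged 1112 ± 322 CPM in FACS sorted and 37.0 ± 1.48 in FACS total, while the AngioTag IP held 454 ± 165 CPM against 26.5 ± 3.41 in its input (SD, n = 3). Of 35 genes of an endothelial list that were found, 30 had at least 5 CPM in FACS sorted, which is itself a sorted-cell condition. Of the 30, 28 also had a sorted to total ratio of at least 4. An AngioTag IP to input ratio of at least 4 was found for 26 of the 30. Shares among genes kept by this filter are set in part by it, here and for the lists below. None of the 30 had a ratio of 0.67 or less, so no gene of that list was among the 18 genes. The lowest ratios were 0.736 for ephb4a and 0.882 for robo4, both below 1, then 1.37 for S1PR1 and 2.75 for TAL1. Of these, robo4 met the sorted-cell conditions, with a sorted to total ratio of 4.30, and ephb4a did not (2.26). The neutrophil gene lyz also had high ratios, 44.4 in sorted cells and 29.2 in the AngioTag IP. Of 18 genes of a neutrophil list that were found, 12 had at least 5 CPM in FACS sorted, and 7 of these met both sorted-cell conditions. An AngioTag IP to input ratio of at least 4 was found for 6 of the 12. Other genes of the list were below 1 in both, MMP9 at 0.682 and 0.685 and s100a10b at 0.357 and 0.614. Skeletal muscle genes (36) summed to 32150 to 33987 CPM in the AngioTag IP and 30618 to 42135 CPM in its input, but to 801 to 1194 CPM in FACS sorted. Epidermal and periderm genes (35) summed to 23770 to 29697 CPM in the AngioTag IP, 32993 to 37219 CPM in the input and 5076 to 9687 CPM in FACS sorted. The part of this RNA in the IP to input ratios was not tested. Library totals ran from 18337269 to 49541930 counts, and FACS sorted 2, the smallest, had 152667 CPM in the gene zgc:158463 against 213 and 2739 CPM in FACS sorted 1 and 3. AngioTag IP 1 had 41938 CPM in the same gene against 167 and 1247 CPM in AngioTag IP 2 and 3. In the RiboTag IP it had 3317 to 11145 CPM. In bulk RNA, fewer cells of a type and less RNA per cell cannot be told apart.

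Few genes met all conditions of the rule. Among 10582 named genes with at least 5 CPM in FACS sorted, 721 (6.81%) had a sorted to total ratio of at least 4, and 1947 (18.4%) had an AngioTag IP to input ratio of at most 0.67. Of the 721, 18 (2.5%) met the IP condition, and 83 (11.5%) had any ratio below 1. The median AngioTag ratio over the other 703, all above 0.67 by the rule, was 2.94. By role, 6 of the 18 encode regulators of transcription, 1 a splicing regulator, 4 regulators of small GTPases and the cytoskeleton, 4 channels, transporters or other membrane proteins, 2 lysosomal proteins of macrophages and 1 a plasma protein. The name table writes 10 of the symbols in capitals, and they are given here as it writes them.

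**Figure D1:**
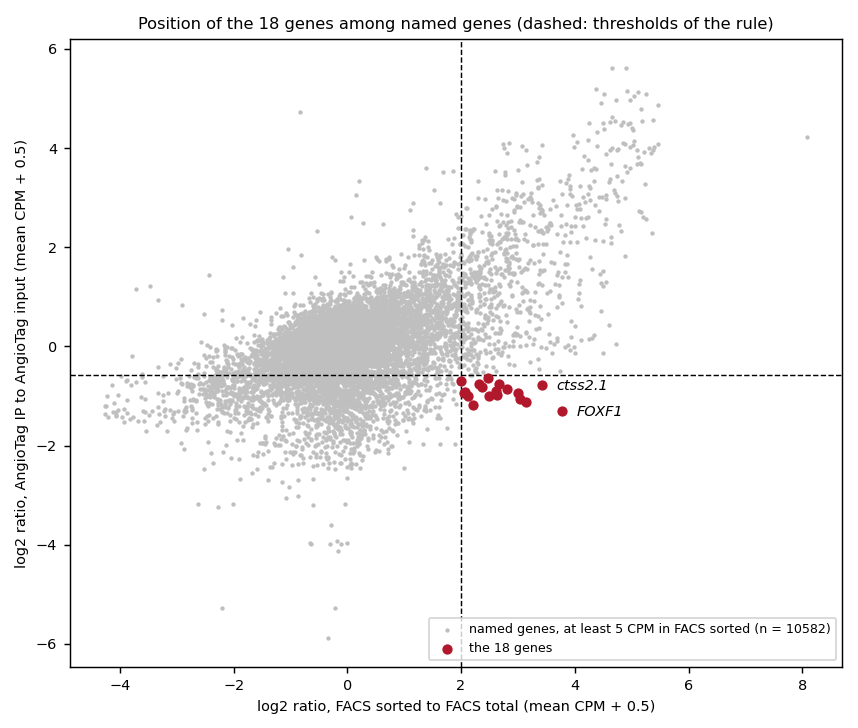
Each point is a named gene with a mean of at least 5 CPM in FACS sorted. The x axis is the log2 ratio of FACS sorted to FACS total, the y axis the log2 ratio of AngioTag IP to AngioTag input, both from group means plus 0.5 CPM. The 18 genes (red) fill a sparse corner, with sorted to total ratios from 4.02 to 13.7 and IP to input ratios from 0.405 to 0.640, below the many sorted-cell genes that are also high in the IP.

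Absence from ribosome-bound RNA, the working description of these genes, held only in part. In the AngioTag IP, 13 of the 18 averaged below 1 CPM (8.37% of the 10582 named genes, 13.8% of the other 703). The rule chose on this group, so nothing is read from these shares. Of the 18, 13 had fewer than 100 reads summed over the 3 libraries. However, AngioTag input was low as well, with a median of 1.34 CPM over the 18 genes against 5.72 CPM in FACS total and 38.8 CPM in FACS sorted. For cd68 and kng1 the description did not hold: they averaged 15.8 and 9.91 CPM in the AngioTag IP, beside 18.2 and 8.70 CPM in FACS sorted. The genes ctss2.1, cdc42ep5 and PIEZO1 averaged 4.92, 3.63 and 1.21 CPM in the AngioTag IP, so they were low rather than absent. In the RiboTag IP, 6 of the 18 averaged below 1 CPM (6.42% of named genes, 34.4% of the other 703). FACS sorted libraries were entirely above AngioTag IP libraries for 16 genes, all but cd68 and kng1 (36.8% of the 10582 named genes). Both groups were used in the choice, so nothing is read from this share.

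**Figure D2:**
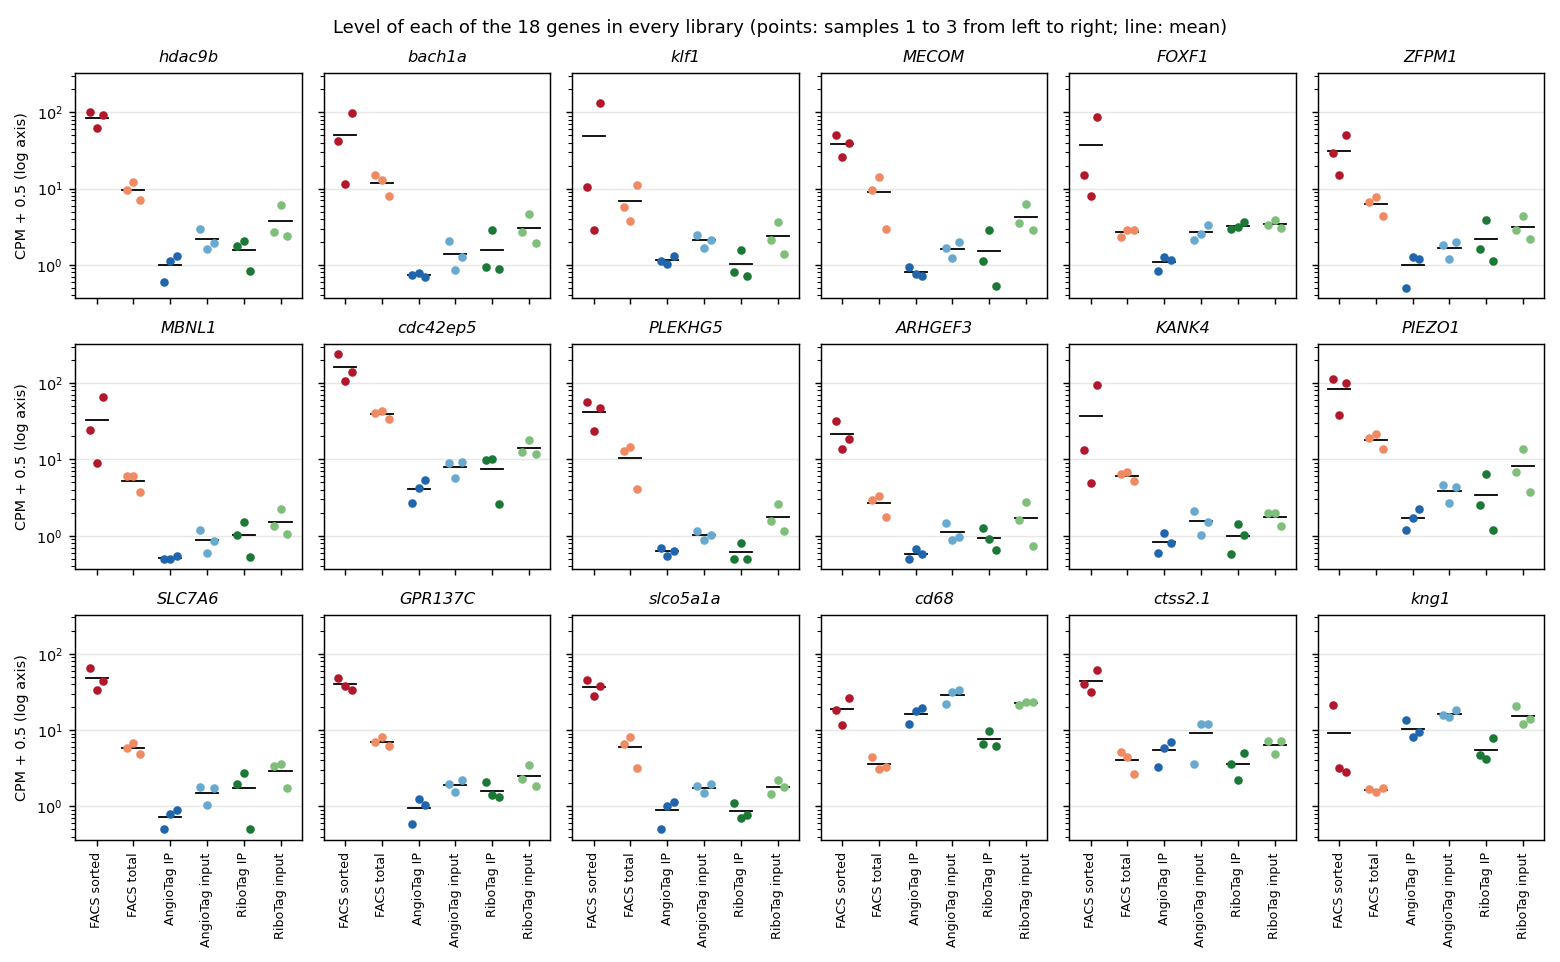
Each panel is 1 of the 18 genes and each point 1 library (3 per group), with CPM plus 0.5 on a log axis and a line at the group mean. In 16 panels every AngioTag IP point lies below every FACS sorted point, while cd68 and kng1 have levels in the AngioTag IP close to those in FACS sorted, and klf1, KANK4 and FOXF1 have a high point in FACS sorted 3.

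Among the regulators of transcription, hdac9b (ENSDARG00000056642), a class IIa histone deacetylase that represses MEF2 targets, had 101, 61.0 and 91.3 CPM in FACS sorted samples 1 to 3 and 9.19, 11.6 and 6.58 CPM in FACS total. In the AngioTag IP it had 0.0966, 0.617 and 0.804 CPM, or 60 reads in all, and in the input 2.5, 1.11 and 1.45 CPM. Every sorted library was above every FACS total library, and every IP library was below every input library. The ratios were 8.80 in sorted cells and 0.461 in the IP.

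MECOM (ENSDARG00000060808), known as EVI1 and needed for blood stem cells in mouse, had 50.6, 25.8 and 38.9 CPM in FACS sorted and 9.10, 13.7 and 2.46 CPM in FACS total. The AngioTag IP held 0.435, 0.261 and 0.226 CPM and the input 1.16, 0.737 and 1.47 CPM. All sorted libraries were again above FACS total and all IP libraries below input, with ratios of 4.37 and 0.497. For bach1a (ENSDARG00000062553), a haem-sensing repressor, the values were 41.4, 11.0 and 97.1 CPM in FACS sorted and 14.4, 12.4 and 7.55 CPM in FACS total. These groups overlapped, because FACS sorted 2 lay below FACS total 1 and 2. The sorted to total ratio of bach1a was 4.21, and 2.24 without FACS sorted 3. In the AngioTag IP bach1a had 0.241, 0.285 and 0.201 CPM, or 25 reads in all, each below the inputs at 1.58, 0.368 and 0.786 CPM. Its IP to input ratio was 0.526. The related gene BACH1 (ENSDARG00000002196) had an IP to input ratio of 0.569 but a sorted to total ratio of only 1.64, so it was not among the 18.

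The forkhead gene FOXF1 (ENSDARG00000015399), a transcription factor of lateral plate mesoderm, had the largest sorted to total ratio of the 18 genes, 13.7, and an AngioTag IP to input ratio of 0.405, the lowest on the scale with 0.5 CPM added. That addition weighs most on genes with fewer reads, such as MBNL1, so the order of these ratios is not an order of the levels themselves. The values of FOXF1 were 14.5, 7.42 and 87.5 CPM in FACS sorted, 1.86, 2.4 and 2.35 CPM in FACS total, 0.338, 0.760 and 0.653 CPM in the AngioTag IP and 1.64, 2.07 and 2.82 CPM in the input. Neither pair of groups overlapped, but the sorted level rested mainly on FACS sorted 3. Without that library the ratio was 4.23. ZFPM1 (ENSDARG00000041572) encodes FOG1, the partner of GATA1 in red cell and platelet formation. It had 28.8, 14.6 and 49.7 CPM in FACS sorted and 6.26, 7.38 and 3.83 CPM in FACS total, while 0, 0.760 and 0.703 CPM in the AngioTag IP overlapped with 1.34, 0.714 and 1.47 CPM in the input.

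The erythroid regulator klf1 (ENSDARG00000017400), which activates globin genes, had 9.86, 2.34 and 132 CPM in FACS sorted and 5.31, 3.21 and 10.7 CPM in FACS total. FACS sorted 2 lay below all of FACS total, and FACS sorted 3 stood far above the rest. With FACS sorted 3 the ratio was 7.02, and without it 0.954. In the AngioTag IP klf1 had 0.628, 0.522 and 0.829 CPM, each below the inputs at 1.99, 1.17 and 1.65 CPM.

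Erythroid genes as a list were also highest in FACS sorted 3. The summed level of 20 erythroid genes was 7279, 5079 and 32917 CPM in FACS sorted samples 1 to 3, 2941 to 6086 CPM in FACS total, 2845 to 7669 CPM in the AngioTag IP, 1923 to 3306 CPM in AngioTag input, 960 to 2569 CPM in the RiboTag IP and 2227 to 3395 CPM in RiboTag input. None of the 20 was at 0 in any group, and gata1a had 9.23, 6.6 and 65.8 CPM in FACS sorted. The part of erythroid RNA in the levels of klf1 and of the other genes high in FACS sorted 3 was not tested. Of the 20 genes, 12 met the sorted-cell conditions, and klf1 was the only member of the 18. The AngioTag IP to input ratio of the other 11 ran from 0.902 for the erythropoietin receptor gene EPOR to 2.98 for blf. Their median was 1.1, and 7 of them were above 1. The rule leaves only ratios above 0.67 among these 11, so their contrast with klf1 is set in part by it.

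**Figure D3:**
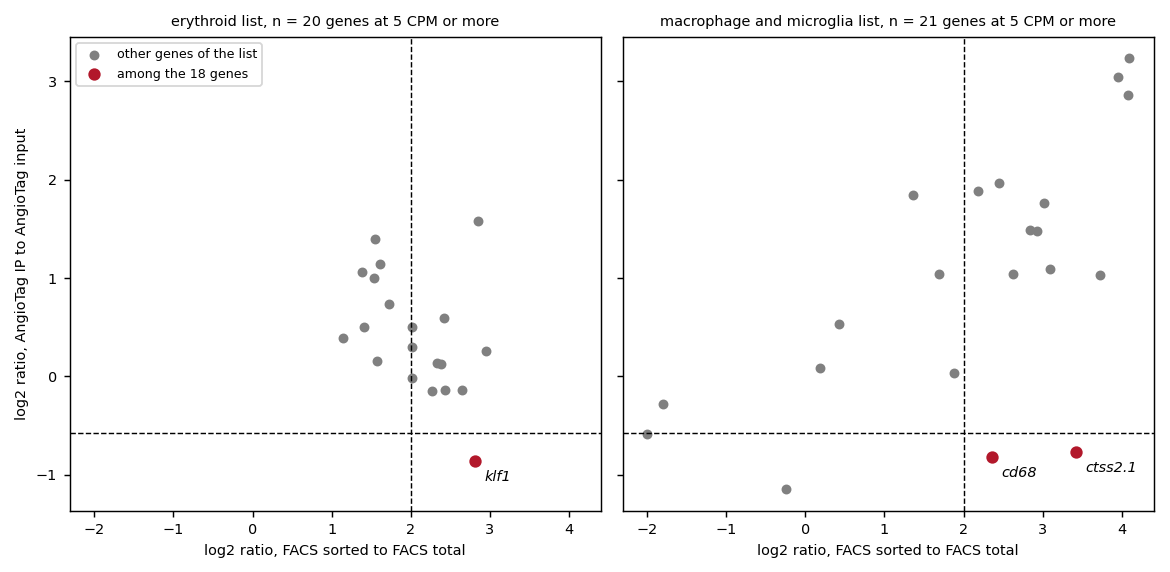
Genes of the erythroid list (20 genes) and of the macrophage and microglia list (21 genes) with at least 5 CPM in FACS sorted, by log2 ratio of FACS sorted to FACS total (x axis) and of AngioTag IP to AngioTag input (y axis), with the thresholds of the rule dashed. In the lower right corner lie klf1 alone in the erythroid panel and cd68 and ctss2.1 in the macrophage panel.

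The splicing regulator MBNL1 (ENSDARG00000052978), which promotes adult splice forms in muscle, had the fewest reads in the AngioTag IP, 2 over 3 libraries, against 41 in the input. In FACS sorted it had 23.8, 8.51 and 65.6 CPM and in FACS total 5.57, 5.49 and 3.19 CPM, without overlap. Its IP to input ratio of 0.592 is set mostly by the added 0.5 CPM, and at 2 reads the depth allows no closer value.

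Of the cytoskeletal group, cdc42ep5 (ENSDARG00000062390), an effector of the GTPase Cdc42, was the best covered of the regulators, with 400 reads in the AngioTag IP. It had 238, 106 and 141 CPM in FACS sorted, 40.0, 42.2 and 33.4 CPM in FACS total, 2.22, 3.73 and 4.95 CPM in the AngioTag IP and 8.39, 5.16 and 8.77 CPM in the input. Both pairs of groups were apart, with ratios of 4.15 and 0.521. ARHGEF3 (ENSDARG00000013834), a guanine nucleotide exchange factor, had 31.3, 13.0 and 18 CPM in FACS sorted and 2.4, 2.77 and 1.28 CPM in FACS total, and 10 reads in the AngioTag IP against 69 in the input. KANK4 (ENSDARG00000059473), an ankyrin-repeat protein linked to actin control, had 12.7, 4.47 and 93.7 CPM in FACS sorted and 5.93, 6.28 and 4.64 CPM in FACS total. It overlapped in both comparisons, and its sorted to total ratio of 6.13 was 1.49 without FACS sorted 3.

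PLEKHG5 is a symbol shared by 2 genes of the table, and their AngioTag IP to input ratios lay on opposite sides of 1. For ENSDARG00000101752 the ratio of 0.614 is set mostly by the added 0.5 CPM, with 11 reads in the IP and 59 in the input. ENSDARG00000101752, among the 18, had 55.2, 23.2 and 45.9 CPM in FACS sorted and 12.3, 13.9 and 3.56 CPM in FACS total, but 0.193, 0.0475 and 0.126 CPM in the AngioTag IP and 0.654, 0.368 and 0.516 CPM in the input. ENSDARG00000025902 averaged 296 CPM in FACS sorted, 16.8 in FACS total, 53 in the AngioTag IP and 7.32 in the input, ratios of 17.1 and 6.83. The gene ENSDARG00000101752 lay nearest to the sorted-cell threshold, with a ratio of 4.02, and the nearest genes outside it were the ubiquitin ligase gene CBLB (3.77) and the Rac exchange factor gene tiam2b (3.73).

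The mechanosensitive channel gene PIEZO1 (ENSDARG00000076870), which senses flow in endothelium and volume in red cells, led the membrane proteins in reads, with 134 in the AngioTag IP. It had 112, 37.8 and 100 CPM in FACS sorted, 18.5, 21.2 and 13.4 CPM in FACS total, 0.676, 1.19 and 1.76 CPM in the AngioTag IP and 4.07, 2.21 and 3.86 CPM in the input. Neither pair overlapped, and the ratios were 4.62 and 0.440. The amino acid transporter gene SLC7A6 (ENSDARG00000054423) had 64.4, 33.2 and 43.9 CPM in FACS sorted and 5.36, 6.20 and 4.33 CPM in FACS total, with 28 reads in the AngioTag IP against 117 in the input.

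For slco5a1a (ENSDARG00000071685), of the organic anion transporter family, the sorted to total ratio was 6.17 and the IP to input ratio 0.505, and for GPR137C (ENSDARG00000045289), an orphan multi-pass membrane protein, they were 5.61 and 0.503. These 4 membrane protein genes did not overlap between groups in either comparison. Both comparisons chose the genes, and 15 of the 18 were apart in each (18.6% and 22.4% of named genes). The slco5a1a paralog slco5a1b (ENSDARG00000086104) went the other way in both, with a sorted to total ratio of 0.563 and an IP to input ratio of 1.35.

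The macrophage genes cd68 and ctss2.1 had 1712 and 546 reads in the AngioTag IP. The lysosomal glycoprotein gene cd68 (ENSDARG00000055504) had 17.8, 11.1 and 25.5 CPM in FACS sorted and 4.0, 2.62 and 2.75 CPM in FACS total, but 11.4, 17.2 and 18.9 CPM in the AngioTag IP and 21.2, 31.3 and 32.5 CPM in the input. Input libraries were thus above FACS sorted libraries in all but the overlap of AngioTag input 1 with FACS sorted 3. The cathepsin S-like protease gene ctss2.1 (ENSDARG00000074656) had 39.1, 30.8 and 60.3 CPM in FACS sorted and 4.67, 3.95 and 2.13 CPM in FACS total. Its AngioTag IP values of 2.80, 5.39 and 6.56 CPM overlapped with the inputs at 3.09, 11.6 and 11.5 CPM.

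Most other macrophage genes found in sorted cells had AngioTag IP to input ratios above 1. Of 21 genes of a macrophage and microglia list with at least 5 CPM in FACS sorted, 13 met the sorted-cell conditions. Apart from cd68 and ctss2.1, the 11 others of these had ratios from 2.05 to 9.41. The rule leaves only ratios above 0.67 among these 11, so their contrast with cd68 and ctss2.1 is set in part by it. A ratio of at least 4 was found for 3 of the 21. These were the actin-bundling gene LCP1 (7.29), the coronin gene CORO1A (8.24) and the NADPH oxidase subunit gene NCF1 (9.41). A ratio of at most 0.67 was found for 4 of the 21, namely cd68, ctss2.1, apoeb and apoc1. Among those that missed the sorted-cell conditions, csf1ra had an IP to input ratio of 1.03, il1b of 1.06 and AIF1L of 0.821. The summed level of the 40 list genes in the table was 900 to 1066 CPM in FACS sorted, 433 to 764 in FACS total, 1381 to 1690 in the AngioTag IP and 2280 to 2434 in AngioTag input, 1010 to 1277 in the RiboTag IP and 1967 to 2564 in RiboTag input, in the lysates most of it from apoeb and apoc1, which yolk-layer cells also express. Their ratios in the IP were 0.452 and 0.667, but in sorted cells 0.841 and 0.249. No gene of the list was at 0 in FACS sorted or FACS total, and 1, 1, 4 and 2 were in the AngioTag IP, AngioTag input, RiboTag IP and RiboTag input. The part of RNA of macrophages or of other cells in the values of cd68 and ctss2.1 was not tested.

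The kininogen gene kng1 (ENSDARG00000022372), a plasma protein of liver and yolk layer, entered through FACS sorted 1. It had 21.1, 2.67 and 2.34 CPM in FACS sorted and 1.21, 1.03 and 1.23 CPM in FACS total, without overlap, and its ratio of 5.54 was 1.81 without FACS sorted 1. In the AngioTag IP it had 13.1, 7.69 and 8.94 CPM, each below the inputs at 15.1, 14.2 and 17.9 CPM. Its ratio of 0.640 was the closest to the IP threshold, and the nearest genes outside were tsg101b (0.6702) and the ubiquitin ligase gene hecw2b (0.6706). Yolk and liver genes differed between the references: apoa1b averaged 1181 CPM in AngioTag input and 5.71 CPM in FACS total. The 43 genes of that list summed to 7108 to 8502 CPM in AngioTag input, 4601 to 4949 in the AngioTag IP, 1139 to 1310 in FACS total and 2996 to 4822 in FACS sorted, with 1, 2, 4 and 3 genes at 0. They summed to 1921 to 2924 CPM in the RiboTag IP and 5982 to 7682 in RiboTag input, with 6 and 3 genes at 0. In FACS sorted most of the sum came from the protease gene ctsla, at a mean of 2877 CPM, and from the endocytic adaptor genes dab2 and DAB2, at 488 and 250 CPM (means), while apoa1b had a mean of 1.98 CPM and the fibrinogen gene fga 0.183 CPM. The part of yolk and liver RNA in the values of kng1 was not tested.

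Over all 18 genes, FACS sorted libraries were entirely above FACS total libraries for 15 (18.6% of the 10582 named genes), the exceptions being bach1a, klf1 and KANK4. AngioTag IP libraries were entirely below input libraries for 15 (22.4%), the exceptions being ctss2.1, KANK4 and ZFPM1. Both comparisons chose the genes, so nothing is read from these shares. AngioTag IP 1, at 20708947 counts, was the lowest of its group for 13 of the 18 genes (50.9% of named genes) and held no read of 5 of them, SLC7A6, slco5a1a, MBNL1, ZFPM1 and ARHGEF3. FACS sorted 2 was the lowest of its group for 16 (63.0%).

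The choice was sensitive to single libraries. Leaving out 1 of the 12 libraries at a time gave 13 to 33 genes, with 33 without FACS sorted 2 and 28 without FACS total 2, and all 18 remained in these last 2 cases. Without FACS sorted 3, 12 of the 18 were left, and bach1a, klf1, PLEKHG5, KANK4, MBNL1 and ZFPM1 were lost. Without FACS sorted 1, 13 were left, and cdc42ep5, PIEZO1, PLEKHG5, MECOM and kng1 were lost. Under all 23 other settings of the rule that were tried, hdac9b, SLC7A6 and FOXF1 were found each time.

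The whole-embryo references differed among themselves for most of the 18 genes. FACS total libraries were entirely above AngioTag input libraries for 14 genes (40.2% of named genes), by ratios from 2.38 for ARHGEF3 to 10.3 for PLEKHG5, and entirely below for cd68 and kng1 (17.2%), with ratios of 0.126 and 0.102. The median ratio over the 18 was 3.79, against 1.28 over all 10582 named genes and 1.44 over the other 703 sorted-cell genes. Both references are denominators in the rule, so no test is given. The labels do not say whether FACS total RNA came from dissociated or intact embryos. Which RNA was poly(A) selected and which was depleted of ribosomal RNA is not stated per library, and the part of either in these ratios was not tested.

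RiboTag input, which had no part in the choice, lay between these references in group mean for all genes but FOXF1. For FOXF1 RiboTag input was above both. FACS total and AngioTag input are denominators in the rule, so comparisons with them are given as a description without a test. FACS total was entirely above RiboTag input for 11 genes (27.3% of named genes, 36.7% of the other 703) and entirely below for FOXF1, cd68 and kng1 (18.1%). For MECOM, ZFPM1 and ARHGEF3, which were above AngioTag input, the libraries overlapped with RiboTag input, and for ctss2.1 they overlapped with both inputs. For hdac9b RiboTag input held 2.23, 5.57 and 1.87 CPM, and for PIEZO1 6.43, 13.2 and 3.26 CPM, so that FACS total 3, at 13.4 CPM, only just cleared RiboTag input 2. The median ratio of FACS total to RiboTag input over the 18 was 2.4, against 1.14 over all named genes. RiboTag input was itself above AngioTag input by a median of 1.61 over the 18 and 1.12 over all named genes, with libraries entirely apart for cdc42ep5, MECOM and ZFPM1 (23.8% of named genes).

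**Figure D4:**
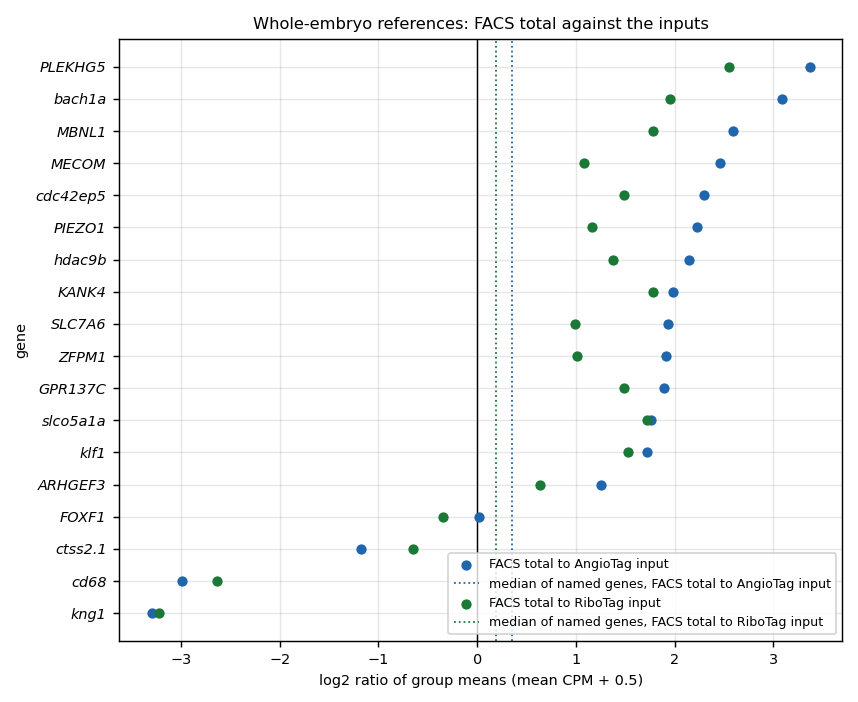
Log2 ratios of FACS total to AngioTag input (blue) and to RiboTag input (green) for the 18 genes, from group means plus 0.5 CPM, with dotted lines at the medians of 10582 named genes. From ARHGEF3 upward 14 genes lie to the right of 0 for both references, and ctss2.1, cd68 and kng1 lie to the left.

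RiboTag IP against RiboTag input asks how the same genes stand in ribosome-bound RNA of the whole embryo, in libraries the choice did not use. All 18 had at least the reads that the filter on low counts asked for and were tested. With edgeR's quasi-likelihood test 1 of the 18 passed, cd68, which was lower in the IP (90 of 18134 genes tested, 0.496%, were lower), and none was higher (0.7%). At an unadjusted p below 0.05, 6 of the 18 were lower (8.28%) and 0 higher (1861 of 18134 genes). Of the 627 other sorted-cell genes tested, 70 were lower at that cut. So were 166 of 1444 genes with at least 5 CPM in FACS sorted and below 5 CPM in RiboTag input. DESeq2 called 2 lower, PLEKHG5 and cd68 (3.08% of all genes with an adjusted p), and 0 higher (3.85%). The values of cd68 were 6.14, 9.26 and 5.71 CPM in the RiboTag IP and 20.5, 22.7 and 22.8 CPM in RiboTag input, without overlap. The log2 difference fitted by edgeR was -1.42 ± 0.21 (SE), at an adjusted p of 0.0275. The call was lost without RiboTag IP 1 (adjusted p = 0.145) and without any 1 of RiboTag inputs 1 to 3 (0.223, 0.141 and 0.197), where calls over all genes also dropped, to 5 to 14 lower genes. The log2 difference itself was -1.36, -1.45, -1.48 and -1.35 in these fits.

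Same-numbered RiboTag libraries deviated together, and with the sample number as a block 5 of the 18 were lower and none higher (6.99% and 7.2% of all genes tested). These were cd68 (-1.42 ± 0.20, adjusted p = 0.00161), PIEZO1 (-1.40 ± 0.29, 0.00991), kng1 (-1.34 ± 0.29, 0.0114), PLEKHG5 (-4.13 ± 1.11, 0.0291) and MECOM (-2.25 ± 0.61, 0.0295), by the same edgeR test. The values of PIEZO1 show the pairing: 2.00, 5.97 and 0.686 CPM in RiboTag IP 1 to 3 against 6.43, 13.2 and 3.26 CPM in the inputs of the same number. The groups overlap, but each IP library is below its own input. MECOM had 0.645, 2.42 and 0.0312 CPM against 3.05, 5.71 and 2.35 CPM. PLEKHG5 was at 0 in RiboTag IP 1 and 3 and had 11 reads in IP 2, against 38, 106 and 23 reads in the inputs, so its fold change is loosely fixed. For kng1 the values were 4.21, 3.64 and 7.36 CPM in the IP and 20.1, 11.7 and 13.3 CPM in the input, without overlap.

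The other 13 genes passed neither with nor without the block. They included cdc42ep5 (-0.74 ± 0.44, adjusted p = 0.402 by edgeR), with 9.27, 9.75 and 2.09 CPM in the IP and 12, 17.3 and 11.1 CPM in the input, and hdac9b (-1.37 ± 0.57, 0.249, or 0.0508 with the block). The value for klf1 was -1.62 ± 0.68 (adjusted p = 0.246) and for ctss2.1 -0.63 ± 0.47 (0.511). FOXF1 was the only gene with a value above 0, 0.18 ± 0.34 (0.82), with 2.48, 2.64 and 3.12 CPM in the IP and 2.89, 3.35 and 2.58 CPM in the input, and it turned to -0.06 without RiboTag IP 3. These intervals are wide, and a p that misses the threshold does not show that the levels were equal.

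**Figure D5:**
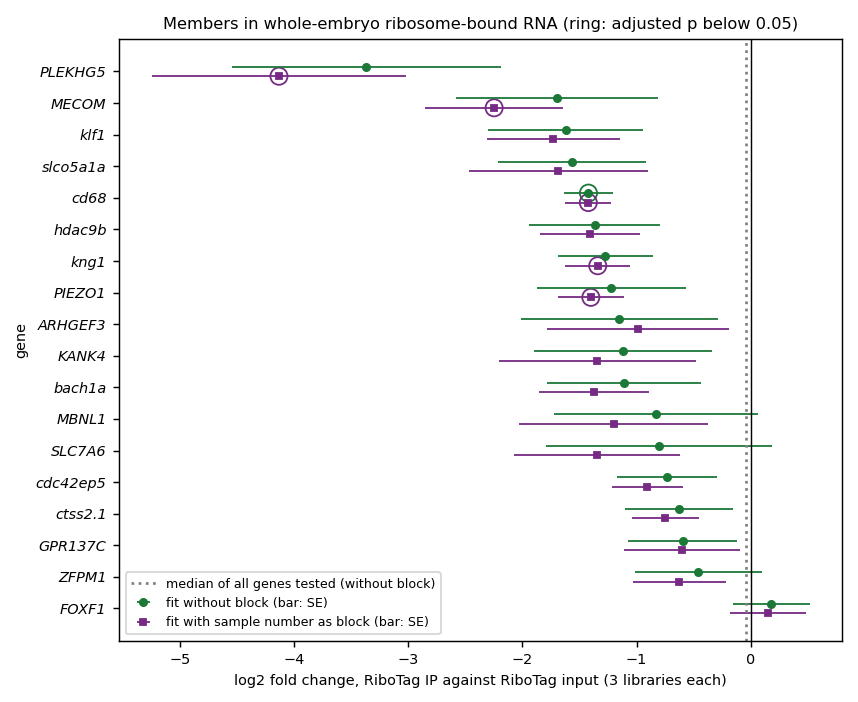
Log2 fold change with its standard error for the 18 genes in RiboTag IP against RiboTag input, by edgeR without (circles) and with (squares) the sample number as a block, with rings where the adjusted p was below 0.05. All values but that of FOXF1 lie below 0 and below the dotted median of all genes, and the rings mark cd68 in both fits and PIEZO1, kng1, PLEKHG5 and MECOM with the block.

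In direction, the fitted fold changes of 17 genes were below 0 (53% of all genes tested), with a median of -1.13 against -0.05 over all genes and -0.24 over the 627 other sorted-cell genes tested. Among genes with at least 5 CPM in FACS sorted and below 5 CPM in RiboTag input, 1444 were tested, with a median of -0.52 and 77.8% below 0. The ratio of group means was below 1 for all 18 (64% of named genes, 81.1% of the other 703). For 16 of the 18 it was at most 0.67 (21.8% of named genes, 32.9% of the other 703), the exceptions being FOXF1 (0.944) and ZFPM1 (0.700). In 17 of the 18 the ratio was below 1 in all 3 same-numbered pairs (42%), and in 6 of the 18 all IP libraries were below all inputs (17.1%, and 25.3% of the other 703), namely cdc42ep5, hdac9b, PLEKHG5, slco5a1a, cd68 and kng1. Low level went with such values in general: of 1574 named genes with at least 5 CPM in FACS sorted and below 5 CPM in RiboTag input, 88.2% had a ratio below 1, 45.7% had one of at most 0.67, and 59.8% were below 1 in all 3 pairs. The part of low level in the values of the 18 was not tested, and 13 of them were below 5 CPM in RiboTag input. RiboTag IP 3 was the lowest of its group for 12 of the 18 genes (50.3% of named genes), and RiboTag input 2 the highest of its group for 14 (63.0%).

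The lists that hold some of the genes differed in their RiboTag calls by edgeR, where 0.496% of all genes were lower (6.99% with the block). Of 20 erythroid genes, klf1 included, none passed, and 3 were lower with the block. At an unadjusted p below 0.05, 8 of them were lower (8.28% of all genes) and 0 higher (1861 of 18134 genes). Of 30 macrophage genes tested 1, cd68, was lower (4 with the block). Of 11 pronephros genes, a list that includes MECOM, none passed, and with the block 1 was higher and 1, MECOM, was lower. Of 33 yolk and liver genes 8 were lower and none higher (28 and 0 with the block), among them apobb.1 (-2.65 ± 0.37, adjusted p = 0.0227) and apoa4b.1 (-2.32 ± 0.30, 0.0191). Without the block kng1 was at -1.28 ± 0.42 (adjusted p = 0.159), beside a list median of -1.69. The list ran from -2.70 for a2ml to 0.14 for dab2, a range too wide to place kng1 with it.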

How the data were processed

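The values are raw counts for each Ensembl gene, as the authors deposited them in 1 table, and all 18 of its columns were used. The submitters' processing notes name STAR 2.4.2a, RSEM 1.2.22, DESeq2 and genome build GRCz10 without their roles. Per the labels' protocols, 500 ng of RNA was poly(A) selected or depleted of ribosomal RNA, without saying which library had which, and a stranded kit was used. Strand use in counting is not given in the sources used here, so overlapping genes and near-identical copies are less certain. Symbols came from an Ensembl name table (22548 of 25193 genes).

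The 18 genes follow from the stated rule on group means of CPM. All 18 are named, as the rule for named genes asks for 30 or fewer. Members and gene lists were chosen with earlier results of these data known. RiboTag IP was tested against RiboTag input in R 4.3.3 with edgeR 4.0.16 (filterByExpr with minimum count 10 and total 15, TMM, quasi-likelihood F test, Benjamini-Hochberg over all genes, threshold 0.05). Standard errors were taken from the fold change and its F statistic. The script was tested on counts simulated without pairing and with the same spread setting for all genes. That checks the code, and does not show how the test does on these libraries. Deviations from the group means of same-numbered RiboTag IP and input libraries correlated at 0.283, 0.678 and 0.479. RiboTag libraries of unlike number correlated at 0.16 at most. Deviations within a group cancel out, so these values are not independent of those for same numbers. The label numbers were taken to pair the RiboTag libraries, from the same counts that the block fit uses. The block result is given where it changes a call. Same-numbered AngioTag libraries correlated at 0.441, 0.23 and 0.241, but IP 2 with input 3 at 0.207 and IP 3 with input 2 at 0.226. These values do not settle the pairing of AngioTag samples 2 and 3. The labels do not say whether replicates came from different pools, so the p-values cover sample spread that may be technical. Library totals were 18337269 to 49541930 counts. DESeq2 1.42.0, RLE and upper-quartile scaling, other filters, all 18 libraries in 1 fit and leaving out each library were alternatives.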

Additional observations from a re-analysis of the deposited data

How the results depend on the processing

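The rule found 18 genes. A pseudocount of 0.1 gave 39, a least fold of 3 or 6 gave 42 or 9, and a largest IP ratio of 0.5 or 0.8 gave 5 or 37, while leaving out each library gave 13 to 33. TMM scaling gave 22 (17 of them shared), a pseudocount of 1 gave 15, and group medians gave 19 (12 shared). In RiboTag, 1 of the 18 genes was lower in the IP, 2 by DESeq2, 2 with all 18 libraries in 1 fit, 5 with the replicate block, and 0 to 6 with each library left out. None was higher under any of these. Over all genes 127 were higher and 90 lower, against 790 and 632 by DESeq2, 374 and 439 with all 18 libraries in 1 fit, 1306 and 1268 with the replicate block, and 0 to 864 and 5 to 1014 with each library left out. The value of FOXF1 was 0.18, reversed to -0.063 without RiboTag IP 3, and lay between -0.063 and 0.32 with each library left out. Of the values for single genes under the alternatives, 212 kept direction and side of the threshold, 12 newly passed it, 4 no longer did (cd68) and 1 reversed (FOXF1). PLEKHG5 also passed by DESeq2 (-3.46) and with all 18 libraries (-3.34), and without RiboTag IP 2 it did so with PIEZO1, bach1a, klf1 and MECOM, and kng1 passed without RiboTag IP 3. With the stricter filter 13 of the 18 could be tested. The cause of these shifts was not tested. Depth limits the AngioTag IP values most, where 13 genes had fewer than 100 reads.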
